A study of Mus musculus with 12 samples.

Results

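Immediate early genes are the first genes a cell transcribes after a stimulus, and 10 of them were followed in mouse striatum: Fos, Fosb, Jun, Junb, Egr1, Egr2, Nr4a1, Arc, Ier2 and Dusp1. All 10 are on the array, among 12393 genes with a symbol of their own, and each is given by 1 probe set, the brightest on average across the 12 arrays. Expression is on a log2 scale, so that 1 unit is a doubling. The 12 mice were C57Bl/6, 1 array per mouse. There were 3 control mice and 3 TIF-IAD1RCre mutant mice at 9 weeks of age, and 3 of each at 13 weeks. The design text gives 3 mice per time point and also speaks of 5 arrays per condition, and the 12 arrays analysed here are 3 per condition. Without TIF-IA, the product of Rrn3, RNA polymerase I cannot begin to read ribosomal RNA genes. D1R-Cre deletes it in D1 receptor neurons, so that other striatal cells keep the gene. The labels name no treatment and do not say which alleles the controls carry. The labels call the tissue striatum and the cell type medium spiny neurons, which are the main output cells there. Oligodendrocyte markers had mean levels of 11.9 to 12.32 in the control mice, so that the RNA came from whole tissue and not from medium spiny neurons alone.

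In neurons, synaptic input and dopamine raise calcium, cAMP and MAP kinase activity, which act on the factors CREB and SRF already bound at immediate early promoters. The transcripts appear within minutes and are short lived, so that their level in a tissue reflects the time just before it was taken. FOS and JUN proteins pair as the transcription factor AP-1. EGR1, EGR2 and NR4A1 are transcription factors of other families, ARC acts at synapses, and DUSP1 is a phosphatase that switches MAP kinases off. In glia the same genes respond to injury, growth factors and cytokines.

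RefSeq (GRCm38.p6) promoter windows were used for 7 of the 10 genes. Arc and Ier2 had no window in the source, and Egr1 was left out because of its chromosome. The 250 bases before the start site are printed 5′ to 3′ for 5 of them. Fos and Jun were chosen as the genes higher in mutants at 13 weeks, though Fos also varied between mice at 9 weeks. Egr2 and Nr4a1 were chosen because they varied between mice at 9 weeks without being higher at 13 weeks. Dusp1 varied at 9 weeks and was higher at 13 weeks by a difference that did not pass. Capitals mark the matches to any of the motifs searched.
Fos, chr12:85473640-85473889, plus strand: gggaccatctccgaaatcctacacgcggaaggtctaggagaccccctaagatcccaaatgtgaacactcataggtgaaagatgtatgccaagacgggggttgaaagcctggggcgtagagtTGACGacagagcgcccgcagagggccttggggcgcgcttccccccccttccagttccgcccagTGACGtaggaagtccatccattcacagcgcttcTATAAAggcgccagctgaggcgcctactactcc
Jun, chr4:95052223-95052472, minus strand: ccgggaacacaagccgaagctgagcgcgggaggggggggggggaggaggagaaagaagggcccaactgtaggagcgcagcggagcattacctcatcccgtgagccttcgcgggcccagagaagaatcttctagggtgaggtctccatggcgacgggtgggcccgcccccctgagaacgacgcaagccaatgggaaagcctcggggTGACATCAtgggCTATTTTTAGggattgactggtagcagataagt
Egr2, chr10:67537619-67537868, plus strand: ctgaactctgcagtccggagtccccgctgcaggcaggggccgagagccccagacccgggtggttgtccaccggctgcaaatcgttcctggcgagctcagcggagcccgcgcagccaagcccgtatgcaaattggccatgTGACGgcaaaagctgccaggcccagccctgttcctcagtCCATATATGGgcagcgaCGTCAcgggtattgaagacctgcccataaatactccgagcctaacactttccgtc
Nr4a1, chr15:101266596-101266845, plus strand: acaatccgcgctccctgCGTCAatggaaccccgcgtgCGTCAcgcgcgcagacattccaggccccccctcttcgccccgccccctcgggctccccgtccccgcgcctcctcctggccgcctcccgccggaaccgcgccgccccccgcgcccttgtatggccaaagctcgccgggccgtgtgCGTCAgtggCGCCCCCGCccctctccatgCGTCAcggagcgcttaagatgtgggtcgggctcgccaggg
Dusp1, chr17:26508473-26508722, minus strand: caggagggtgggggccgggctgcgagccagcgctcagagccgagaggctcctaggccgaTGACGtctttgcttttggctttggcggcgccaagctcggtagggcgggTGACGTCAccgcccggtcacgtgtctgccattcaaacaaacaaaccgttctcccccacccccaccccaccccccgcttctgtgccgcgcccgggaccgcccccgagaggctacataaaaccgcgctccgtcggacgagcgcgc

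The motifs were searched on both strands. The CRE, to which CREB binds, is TGACGTCA, and its half-site TGACG is part of it. Of 32851 windows of this length in the table, 1.55% hold the full CRE and 17.8% the half-site. Nr4a1 has 4 half-sites, at 233, 213, 69 and 40 bases before the start. Fos has 2, at 129 and 66 bases, and a TATA element TATAAA (in 12.4% of windows) at 33 bases. Dusp1 has a full CRE at 143 bases and another half-site at 191 bases. Egr2 is shown for 1 of its 5 start sites in the table, where it has 2 half-sites and a CArG box, the SRF motif, at 72 bases (1.47% of windows). Of its other start sites, 1 has none of the motifs and 1 has a CArG box but no half-site. The rest again have 2 half-sites and a CArG box. The Jun window holds no TGACG. It has the AP-1 or ATF variant TGACATCA at 45 bases (2.93% of windows) and a MEF2 motif at 33 bases (0.103% of windows), both added to the search after the Jun window had been seen. The AP-1 motif TGANTCA (6.75% of windows) is in none of the 5. Of the EGR motifs, GCGGGGGCG (2.57% of windows) is in the Nr4a1 window, overlapping no half-site, and GCGTGGGCG (0.536%) is in none of the 5. Fosb has a half-site and GCGGGGGCG, and Junb has a half-site. These are matches of letters and were not tested for binding.

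Some facts of the series bear on every value. Rrn3 was lower in mutants at 9 weeks (8.0, 7.97 and 8.2 in controls, 6.9, 6.96 and 6.91 in mutants) but overlapped at 13 weeks (7.96, 7.54 and 8.04 against 7.72, 7.58 and 7.18), and the position of its probe set in the gene was not analysed here. The labels give no sex. From Xist and Eif2s3y, control mouse 3 and mutant mouse 1 at 9 weeks, control mouse 3 at 13 weeks and all 3 mutants at 13 weeks were female, so that genotype and sex are partly confounded at 13 weeks. Fits with sex as a term, given below, assume the same shift between females and males in every group. Mutant mouse 3 at 9 weeks and control mouse 1 at 13 weeks had high Slc17a6 (7.99 and 7.08, against 2.67 to 4.44 in the other mice) and high Calb2 (7.74 and 8.0, against 2.5 to 5.01). Slc17a6 marks thalamic neurons and Calb2 marks thalamic neurons and interneurons. The closest pair of arrays differed by a root mean square of 0.251 log2, and no array was a copy of another. A gene was tested when 3 or more arrays showed it above their own 40th percentile, which lay at 3.51 to 3.81.

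Of the 10 genes, 8 passed this filter. Fosb, whose protein pairs with JUN in AP-1 like FOS, and Ier2, a rapidly induced nuclear protein gene, lay below the percentile on all 12 arrays. Fosb had values of 2.03 to 3.17, with the highest in control mouse 3 at 13 weeks. Ier2 had values of 2.4 to 3.4, with the highest in mutant mouse 2 at 13 weeks. Neither was tested, and their true order cannot be read at this level.

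At 9 weeks none of the 8 genes passed the test between mutants and controls, while the mice within each group were far apart. In limma's test across all 8256 genes the adjusted p-values of the 8 ranged from 0.501 for Jun to 0.93 for Egr1. The median difference was 0.47, against -0.02 over all genes tested. It rested on mutant mouse 1: without that mouse the median was -0.18 and 6 of 8 differences were below 0, where over all mice 1 was. At 13 weeks Fos and Jun were higher in mutants, Fos 7.57-fold and Jun 7.82-fold, and the other 6 did not pass. Of the 8 differences at 13 weeks 4 were below 0, and they ranged from -0.48 to 2.97. No test compared the genes with each other.

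Fos was the gene with the widest spread. At 9 weeks it read 4.26, 6.88 and 7.22 in controls and 9.77, 6.31 and 6.13 in mutants. Mutant mouse 1 was above every control, control mouse 1 was below every other mouse, and the groups overlapped. The difference was 1.28 ± 1.06 (SE, n = 3 per group, adjusted p = 0.537), and without mutant mouse 1 it was 0.10. At 13 weeks the controls were 7.58, 7.49 and 4.65 and the mutants 9.74, 9.63 and 9.11. All 3 mutants lay above all 3 controls, and mutant mouse 1 at 9 weeks had reached the same level.

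The rise of Fos at 13 weeks was 2.92 ± 1.06 (adjusted p = 0.0415). It did not pass when any 1 mutant at 13 weeks, control mouse 3 at 13 weeks or control mouse 2 at 9 weeks was left out (2.80, 2.85, 3.11, 1.96 and 2.92, highest adjusted p = 0.15). The low control, mouse 3, was the female one, and a fit with sex as a term gave 2.41 ± 1.23 (adjusted p = 0.132). The mean of the 3 mutants, all female, was 4.84 above that 1 female control, which as a lone and low mouse gives no spread of its own. Fos was also higher in mutants at 13 than at 9 weeks, by 2.09 ± 1.06, which did not pass (adjusted p = 0.155, or 0.0255 without mutant mouse 1 at 9 weeks). In controls the ages differed by 0.45 ± 1.06, and the genotype difference changed between ages by 1.64 ± 1.5 (adjusted p = 0.487), which did not pass.

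Jun, the partner of FOS in AP-1, had a narrow spread and the clearest difference. At 9 weeks it read 7.11, 7.15 and 6.77 in controls and 7.2, 7.27 and 7.4 in mutants. The groups did not overlap, but the difference was small, 0.28 ± 0.21 (adjusted p = 0.501), and 15% of all genes tested were non-overlapping and higher in mutants at this age. At 13 weeks the controls were 6.96, 6.4 and 6.33 and the mutants 9.9, 9.46 and 9.23. The rise was 2.97 ± 0.21 (adjusted p = 6.92e-07), and leaving out each of the 12 arrays in turn gave 2.78 to 3.17, with the call kept every time.

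The genotype difference of Jun was larger at 13 than at 9 weeks by 2.69 ± 0.30 (adjusted p = 7.26e-05), and in mutants Jun rose with age by 2.24 ± 0.21 (adjusted p = 9.12e-06). In controls Jun differed between ages by -0.45 ± 0.21, which did not pass (adjusted p = 0.307). A second Jun probe set read 6.19, 6.56 and 6.48 in controls and 7.39, 7.0 and 6.95 in mutants at 9 weeks, and 7.04, 6.53 and 6.17 against 10.44, 10.03 and 9.42 at 13 weeks. Both probe sets therefore placed the 3 mutants at 13 weeks above all other mice. With sex as a term the rise at 13 weeks was 3.15 ± 0.23 (adjusted p = 2.12e-06).

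**Figure D1:**
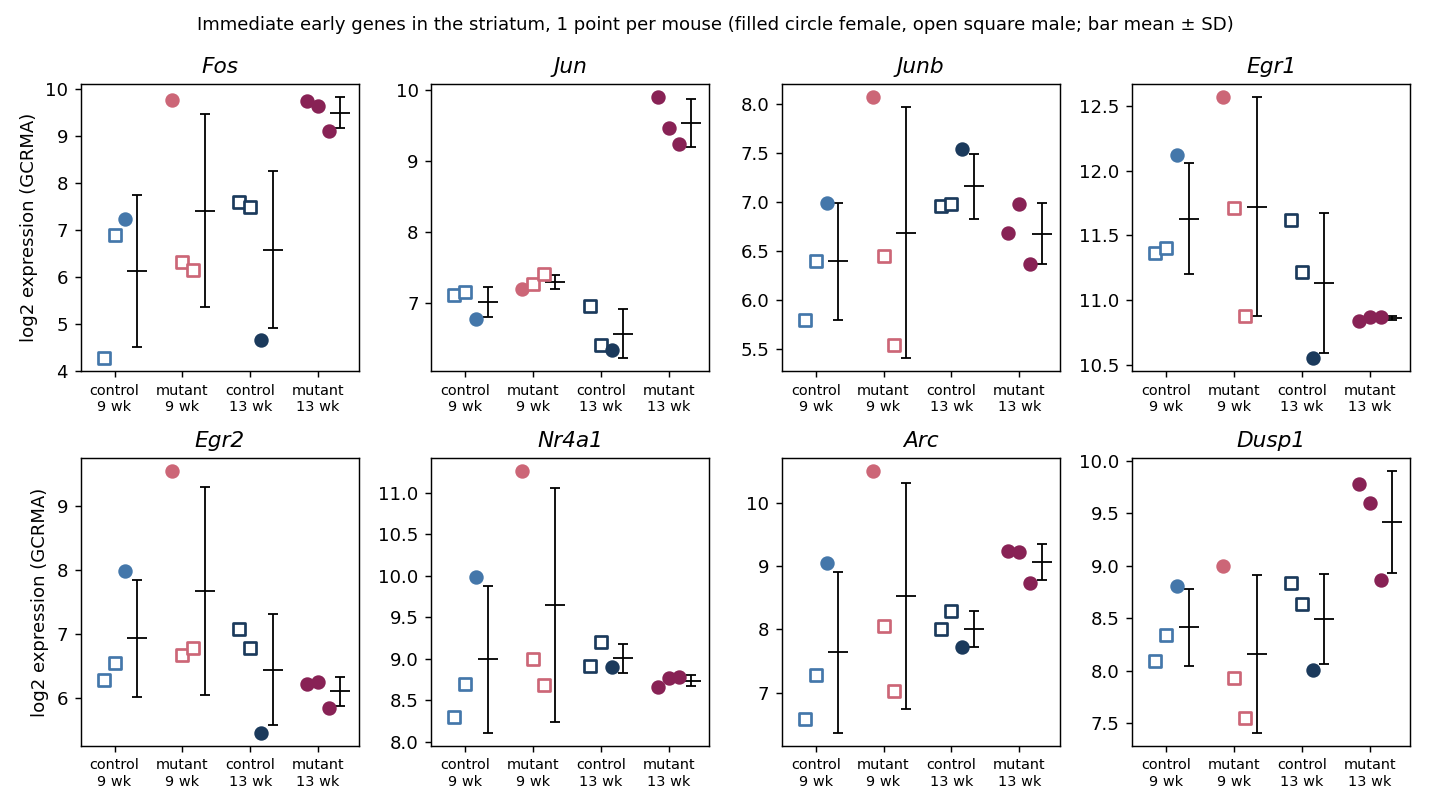
Log2 expression of the 8 tested genes in each of the 12 mice, by group, with filled circles for females, open squares for males, and the mean ± SD of each group (n = 3). Jun in mutants at 13 weeks (9.23 to 9.9) sits above all other mice, while for Fos, Junb, Egr1, Egr2, Nr4a1 and Arc the highest of all 12 values is that of mutant mouse 1 at 9 weeks.

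Junb, an AP-1 member that can also oppose JUN, did not follow Jun. The 9-week controls read 5.79, 6.39 and 6.99 and the 9-week mutants 8.07, 6.44 and 5.54, with the highest and the lowest of all 12 mice both among the 9-week mutants. The 13-week controls read 6.95, 6.98 and 7.54 and the mutants of that age 6.68, 6.98 and 6.36, so that the groups met at 6.98. The differences were 0.29 ± 0.52 (adjusted p = 0.804) at 9 weeks and -0.48 ± 0.52 (adjusted p = 0.467) at 13 weeks. With sex as a term the difference at 13 weeks was -1.27 ± 0.39 (adjusted p = 0.0204), the only setting tried in which Junb passed at this age.

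The EGR genes encode zinc finger factors that neurons induce with activity. Egr1 read 11.36, 11.4 and 12.12 in controls and 12.57, 11.71 and 10.88 in mutants at 9 weeks. At 13 weeks it read 11.62, 11.22 and 10.55 in controls and 10.84, 10.87 and 10.87 in mutants. The 3 mutants at 13 weeks were within 0.03 of each other, inside the range of their controls. The differences were 0.09 ± 0.39 (adjusted p = 0.93) and -0.27 ± 0.39 (adjusted p = 0.5935). In mutants Egr1 was lower at 13 than at 9 weeks by 0.86 ± 0.39 with no overlap, which did not pass (adjusted p = 0.11), and 31.8% of all genes were non-overlapping and lower in that comparison.

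Egr2 showed the pattern of Egr1 with a wider spread. It read 6.27, 6.54 and 7.98 in controls and 9.55, 6.67 and 6.78 in mutants at 9 weeks, and 7.08, 6.78 and 5.45 against 6.21, 6.25 and 5.83 at 13 weeks. Mutant mouse 1 at 9 weeks was the highest of all 12, and control mouse 3 of that age was next. The differences were 0.74 ± 0.71 (adjusted p = 0.609) at 9 weeks and -0.34 ± 0.71 (adjusted p = 0.719) at 13 weeks. A second Egr2 probe set also put mutant mouse 1 highest, at 8.69, with all other mice between 5.22 and 6.27. In mutants Egr2 differed between ages by -1.57 ± 0.71 (adjusted p = 0.114), and with sex as a term by -2.22 ± 0.75, which passed (adjusted p = 0.046).

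Nr4a1 encodes an orphan nuclear receptor that dopamine signalling controls in the striatum. It read 8.3, 8.69 and 9.99 in controls and 11.26, 9.0 and 8.68 in mutants at 9 weeks, and the difference was 0.65 ± 0.58 (adjusted p = 0.566). At 13 weeks it read 8.91, 9.2 and 8.9 in controls and 8.66, 8.77 and 8.78 in mutants. All 3 mutants were then below all 3 controls, by a difference of -0.27 ± 0.58 that did not pass (adjusted p = 0.728), and 26.8% of all genes were non-overlapping and lower at this age. In mutants the ages differed by -0.91 ± 0.58 (adjusted p = 0.256), and with sex as a term Nr4a1 was lower at 13 weeks by a difference of -1.75 ± 0.47 that passed (adjusted p = 0.0163). That fit assumes 1 shift of sex in all groups, but the female control was high at 9 weeks (9.99) and not at 13 weeks (8.9).

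Arc, which neurons make at active synapses, read 6.58, 7.28 and 9.05 in controls and 10.51, 8.06 and 7.03 in mutants at 9 weeks. At 13 weeks it read 8.01, 8.29 and 7.72 in controls and 9.24, 9.23 and 8.74 in mutants. The groups were apart at 13 weeks and overlapped at 9 weeks. The differences were 0.90 ± 0.76 (adjusted p = 0.5505) and 1.06 ± 0.76 (adjusted p = 0.275). The shared estimate of spread, which includes the wide 9-week groups, sets this SE. A fit to the 13-week mice alone gave the same 1.06 with an adjusted p of 0.0119, and with sex as a term the difference was 0.03 ± 0.66.

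Dusp1, whose product removes phosphate from MAP kinases, read 8.09, 8.34 and 8.81 in controls and 9.0, 7.93 and 7.55 in mutants at 9 weeks. At 13 weeks it read 8.83, 8.63 and 8.01 in controls and 9.78, 9.6 and 8.86 in mutants. The 13-week groups did not overlap, but their nearest mice were almost level, at 8.83 and 8.86. The differences were -0.25 ± 0.38 (adjusted p = 0.761) and 0.92 ± 0.38 (adjusted p = 0.0636). In mutants Dusp1 rose with age by 1.25 ± 0.38 (adjusted p = 0.02325), although mutant mouse 1 at 9 weeks overlapped the older mutants. That call was lost without mutant mouse 2 or 3 at 9 weeks or mutant mouse 1 or 2 at 13 weeks (1.14, 0.95, 1.07 and 1.16, highest adjusted p = 0.0963), and with sex as a term (1.00 ± 0.42, adjusted p = 0.099).

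**Figure D2:**
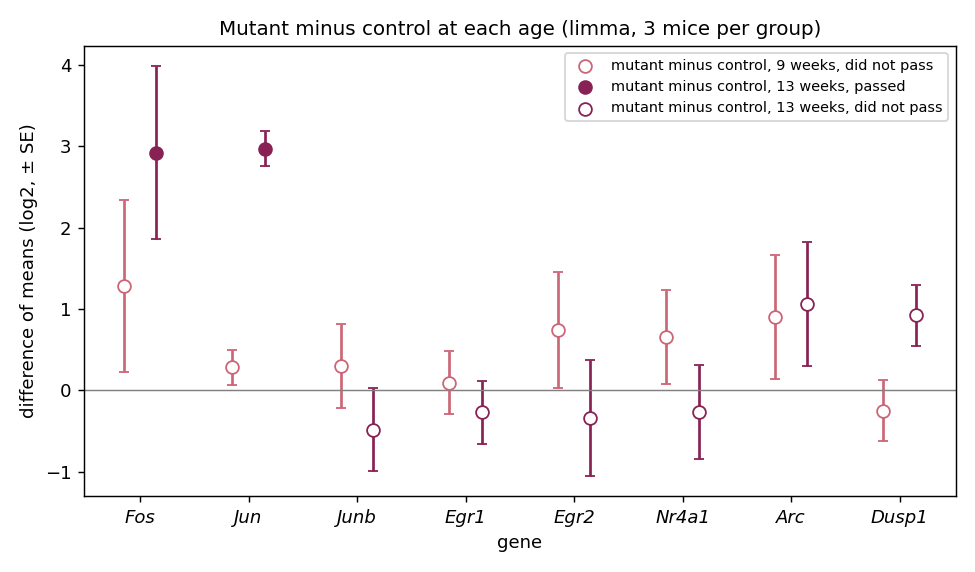
Difference of the group means, mutant minus control, in log2 units with the SE from limma for the 8 tested genes at 9 and at 13 weeks (3 mice per group), with filled points for genes past an adjusted p of 0.05. Only Fos (2.92) and Jun (2.97) at 13 weeks passed.

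Read against all genes, these counts are not large. At 13 weeks 2 of 8 members rose, 25%, where 23.4% of all genes tested rose and 21.9% fell. The genotype difference changed upwards between ages for 1 of 8 members, 12.5%, where 18.4% of all genes changed, 12.1% upwards and 6.38% downwards. In mutants 2 of 8, Jun and Dusp1, rose with age, where 16.1% of all genes rose and 16.6% fell. These shares lie near those of all genes and are no result about the members. At 9 weeks 0 of 8 passed in limma's test, where 5% of all genes passed, 2.02% higher and 2.98% lower. Between the control ages 0 of 8 passed in limma's test, where 0.145% of all genes passed, 0.0848% higher and 0.0606% lower. The comparisons between genotypes and between ages share mice, so that the rise of Jun in one is not independent of its rise in the other.

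Groups without overlap were counted in the same way. At 13 weeks the mutants lay wholly above the controls for Fos, Jun, Arc and Dusp1 and wholly below for Nr4a1, 5 of 8, where 54.6% of all genes did either, 27.8% above and 26.8% below. At 9 weeks Jun alone did, 1 of 8, where 35.5% of all genes did, 15% above and 20.6% below. Between the ages in mutants Jun lay wholly higher and Egr1 and Egr2 wholly lower at 13 weeks, 3 of 8, where 54.6% of all genes did, 22.8% higher and 31.8% lower. Between the ages in controls 0 of 8 did, where 23.4% of all genes did, 6.67% higher and 16.7% lower.

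The spread between mice was where these genes stood far out among all genes. Over the 4 groups the pooled SD within a group was 1.56 for Fos, 1.12 for Arc, 1.04 for Egr2, 0.836 for Nr4a1, 0.744 for Junb, 0.545 for Egr1 and 0.529 for Dusp1. The median over all genes tested was 0.277 and the 90th percentile 0.506, so that these 7 lay between the 91.7th percentile (Dusp1) and the 99.9th (Fos). Jun was the exception, at 0.269 and the 47.8th percentile.

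Relative to all genes this spread stood out mostly in the 9-week mice. Among mutants at 9 weeks the median SD of the 8 genes was 1.34 against 0.19 over all genes, and 7 of 8 lay above the 90th percentile. Among controls at 9 weeks it was 0.74 against 0.14, with 6 of 8 above. Among controls at 13 weeks it was 0.39 against 0.33, with 2 of 8 above, Fos and Egr2. Among mutants at 13 weeks it was 0.30 against 0.17, with 1 of 8 above, Dusp1. Fos had an SD of 2.05 in mutants at 9 weeks and 0.34 in mutants at 13 weeks, and for Egr1 these values were 0.84 and 0.02. In controls the SD rose from 9 to 13 weeks for Fos (1.62 and 1.67), Egr1 (0.43 and 0.54), Dusp1 (0.37 and 0.43) and Jun (0.21 and 0.35). It fell for Arc (1.27 and 0.28), Nr4a1 (0.88 and 0.17), Junb (0.6 and 0.33) and Egr2 (0.92 and 0.87). The lower count above the 90th percentile in controls at 13 weeks thus also reflects the wider spread of all genes there. No test was made of the difference in spread.

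**Figure D3:**
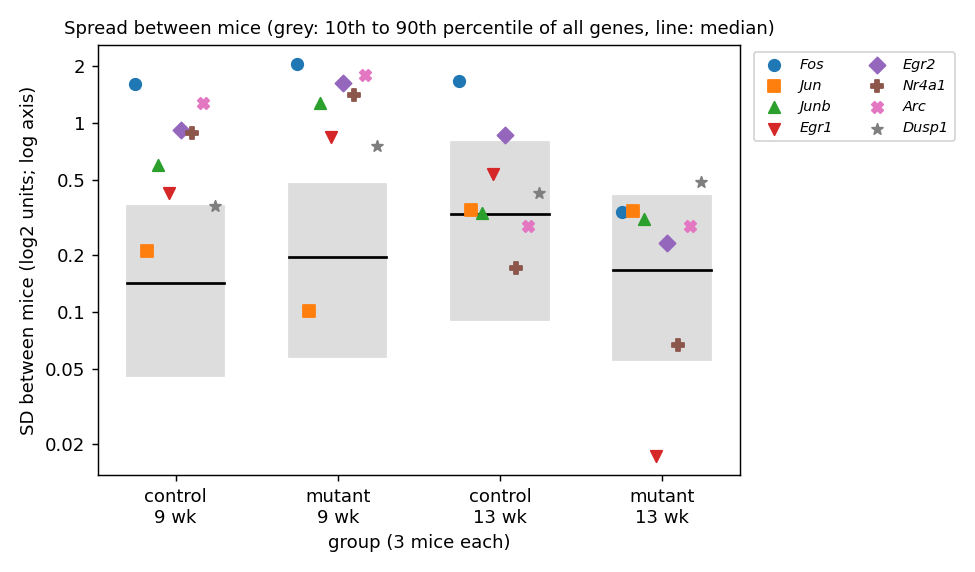
SD between the 3 mice of each group, in log2 units on a log axis, for the 8 tested genes, with a grey box from the 10th to the 90th percentile of all genes tested and a line at their median. At 9 weeks most of the genes lie above the box in both genotypes (median SD 0.74 in controls and 1.34 in mutants), while in mutants at 13 weeks Dusp1 is the only one above it.

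The genes other than Jun rose and fell together from mouse to mouse at 9 weeks. Mutant mouse 1 was the highest of its group for 7 of 8 genes, with deviations from the group mean of 2.37 for Fos, 1.98 for Arc, 1.88 for Egr2, 1.61 for Nr4a1, 1.39 for Junb, 0.85 for Egr1 and 0.84 for Dusp1. The same array was the highest of its group for 34.4% of all genes tested. Control mouse 3 was the highest of its group for the same 7 genes, by 0.40 for Dusp1 to 1.41 for Arc, and for 33.5% of all genes. Control mouse 1 was the lowest for those 7 genes, and mutant mouse 3 was the lowest for 6 of 8. The share of all genes lowest in a mouse was not counted. Above the group mean lay 1 of 8 genes in control mouse 1, where 53.6% of all genes did. In mutant mouse 3 it was also 1 of 8, where 50.6% of all genes did.

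At 13 weeks control mouse 3 was the lowest of its group for 7 of 8 genes, by 0.10 for Nr4a1 to 1.92 for Fos, and the highest for Junb. Above the group mean lay 1 of 8 genes there, where 51.1% of all genes did. This mouse was the highest of its group for 44.7% of all genes tested, and the share of all genes lowest in it was not counted. The median SD over all genes was 0.33 in its group, against 0.14 to 0.19 in the other groups. Without this mouse 1358 genes passed between genotypes at 9 weeks in limma's test, against 413 with all mice. In this mouse 10 of 13 medium spiny neuron markers (median 0.27) and 6 of 7 general neuron markers (median 0.35) lay above the group mean. The part of this in its low values was not tested. Mutant mouse 3 at 13 weeks was the lowest for 6 of 8, by at most 0.55. Above the group mean lay 2 of 8 genes there, where 50.3% of all genes did. So did 12 of 13 medium spiny neuron markers (median 0.44), 7 of 7 general neuron markers (median 0.39) and 1 of 12 microglia and macrophage markers (median -0.22). The part of these cells in its low values was not tested. Since all the genes of a mouse come from 1 tissue sample and 1 array, a shared course within a mouse is not replication.

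**Figure D4:**
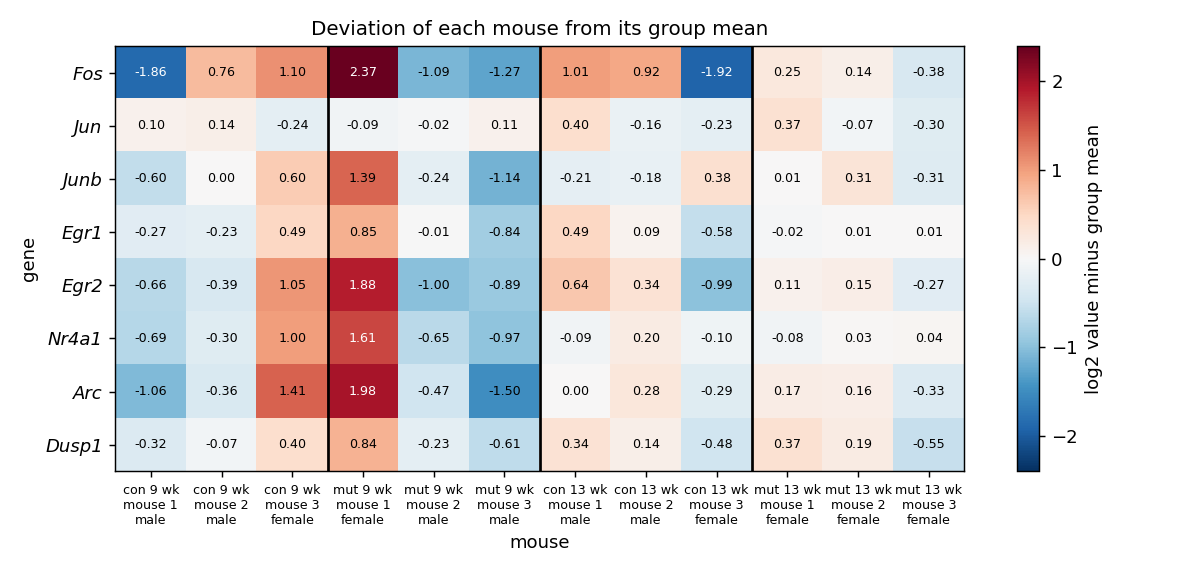
Log2 value minus the mean of its group for the 8 tested genes (rows) in the 12 mice (columns), red above and blue below the mean, with the sex read from Xist and Eif2s3y under each mouse. Mutant mouse 1 and control mouse 3 at 9 weeks are above their group means for every gene but Jun, and the 3 mutants at 13 weeks deviate by at most 0.55.

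Sex moved with these values at 9 weeks. The high mouse in each 9-week group was its 1 female, and at 13 weeks the female control was the low one of its group for 7 of 8 genes. With 1 female in each of these groups the part of sex was not tested. Outside Jun and Junb the lone female was high at 9 weeks and low at 13 weeks, unlike the single shift that the fits with sex as a term assume. Since all 3 mutants at 13 weeks were female, those fits cannot separate sex from genotype or age there. Their values for all 8 genes, Jun included, rest on that assumption. Among the 2 male mice of each genotype at 9 weeks the differences were 0.65 ± 0.66 for Fos, 0.62 ± 0.36 for Arc, 0.35 ± 0.19 for Nr4a1, 0.32 ± 0.20 for Egr2, 0.21 ± 0.25 for Jun, -0.48 ± 0.29 for Dusp1, -0.10 ± 0.32 for Junb and -0.0850 ± 0.25 for Egr1, and none of the 8 passed (lowest adjusted p = 0.292, with limma). The array of mutant mouse 3 at 9 weeks, low for 6 of 8 genes, is also the one with high Slc17a6 and Calb2, and all 12 microglia and macrophage markers lay above the group mean there (median 0.40), while in mutant mouse 1 none of the 12 did (median -0.41). Of 13 medium spiny neuron markers 1 lay above the group mean in mutant mouse 3 (median -0.27) and 10 did in mutant mouse 1 (median 0.14). In mutant mouse 3 at 13 weeks, also low for 6 of 8 genes, these 2 marker lists went the other way. The part of these cells in the low and high values was not tested.

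The genes whose course over the 12 mice was most like the median course of the 8 were Qtrt2, Dusp6, Tiparp, Cep290 and Phlda1, by the root mean square difference of values centred on each gene's mean. It was 0.404, 0.413, 0.415, 0.42 and 0.428 log2 for these 5, against a median of 0.799 over the other genes. Of the 8 genes themselves Nr4a1 was closest to that course, at 0.463, and Fos was farthest, at 1.34. Dusp6, a phosphatase of ERK kinases, read 8.81 in mutant mouse 1 at 9 weeks, 7.14 to 7.87 in the other 9-week mice and 7.4 to 7.88 in controls at 13 weeks. In the mutants at 13 weeks it read 8.73, 8.59 and 8.65, a rise of 1.03 ± 0.33 over their controls (adjusted p = 0.0228). Tiparp, a rapidly induced ADP-ribosyltransferase gene, read 7.99 in control mouse 3 and 8.34 in mutant mouse 1 at 9 weeks, the highest of their groups, and 7.97 to 8.47 in mutants at 13 weeks.

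All 10 other AP-1 and ATF genes and all 6 other EGR and NR4A genes of the lists are on the array, but many did not pass the filter on low values. Of the 10 AP-1 and ATF genes 6 were tested, and 2 rose and 1 fell at 13 weeks, where 23.4% of all genes rose and 21.9% fell. Atf3, a stress-induced factor that pairs with JUN, read 2.23 to 2.32 in controls and 7.88, 7.45 and 6.78 in mutants at 13 weeks, and Maff, a small MAF factor, read 2.51 to 2.55 in controls and 5.13, 5.56 and 4.64 in mutants. Both genes passed the filter only through these 3 mutants and so had to differ, and with every other mouse near the floor no size is given for their rises. In all, 157 genes passed the filter in this way. Jdp2, which represses AP-1, fell by 0.43 ± 0.16 (adjusted p = 0.0499). Jund, the third JUN gene, differed by 0.00 ± 0.12, Mafk by 0.21 ± 0.17 and Mafg by 0.09 ± 0.19. At 9 weeks 0 of the 6 passed in limma's test, where 5% of all genes did.

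Of 6 other EGR and NR4A genes 2 were tested, the corepressor genes Nab1 and Nab2 that hold EGR proteins in check. At 13 weeks Nab1 rose by 0.56 ± 0.18 (adjusted p = 0.0225) and Nab2, itself a target of EGR1, fell by 1.64 ± 0.42 (adjusted p = 0.00722). Nab2 read 7.93, 7.85 and 9.36 in controls and 6.89, 6.56 and 6.77 in mutants. Egr3, Egr4, Nr4a2 and Nr4a3 did not pass the filter. The highest Egr4 values, 3.29 and 2.49, were in mutant mouse 1 and control mouse 3 at 9 weeks, below the percentile.

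Of 43 other rapid response genes 37 were tested. At 13 weeks 22 rose and 1 fell, 62.2%, where 45.3% of all genes passed, and their median difference was 1.31 against 0.00 over all genes. Of the 22, Zfp36 and Pim1 passed the filter only through the 13-week mutants and had to differ. The matricellular gene Ccn1 rose by 3.83 ± 0.23 and the transcription factor gene Cebpd by 4.54 ± 0.36. The cytokine feedback gene Socs3 read 2.99 to 3.29 in controls, below the percentile, and 9.71, 9.66 and 8.89 in mutants. Zfp36, which encodes an mRNA decay factor, read 2.97 to 3.13 in controls and 5.47, 5.18 and 5.08 in mutants. At 9 weeks 0 of the 37 passed in limma's test, where 5% of all genes did. The smallest adjusted p-values were those of Gadd45g (1.03 ± 0.28, adjusted p = 0.0591) and Id3 (0.75 ± 0.24, adjusted p = 0.089). In mutant mouse 1 at 9 weeks the median of the 37 lay 0.34 above its group mean, against 1.5 for the 8 immediate early genes and -0.01 for all genes.

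Of 13 tested products of neuronal activity 2 rose and 2 fell at 13 weeks, 30.8%, below the 45.3% of all genes that passed. Inhba, which encodes an activin subunit, rose by 3.65 ± 0.57, while the kinase gene Dclk1 fell by 1.96 ± 0.24 and the LIM protein gene Lmo4 by 1.06 ± 0.27. The other rise, of the small GTPase gene Gem, was from 2.69 to 2.8 in controls to 5.93, 5.39 and 3.94 in mutants, and Gem passed the filter only through these mutants. Dclk1 also fell at 9 weeks, by 1.12 ± 0.24 (adjusted p = 0.0277). Among 5 other dual specificity phosphatases Dusp16 (1.45 ± 0.20) rose with Dusp6 at 13 weeks, and Dusp7 (-1.4967 ± 0.28) and Dusp8 (-0.68 ± 0.16) fell, so that 4 of 5 passed, 80% against 45.3% of all genes.

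Among the listed regulators and kinases upstream of immediate early genes, more fell than rose in mutants at 13 weeks. Of 12 tested SRF, ELK and CREB regulators 6 fell and 2 rose, 66.7% against 45.3% of all genes. Srf fell by 1.33 ± 0.24 (adjusted p = 0.000913), its partner gene Elk1 by 2.63 ± 0.40 and Mef2d by 0.92 ± 0.16, while Elk3 rose by 3.62 ± 0.48. Elk1 read 2.92, 2.94 and 4.04 in these mutants, and Elk3 read 4.0, 3.06 and 3.28 in their controls. Most of these values lay below the percentile, so that the sizes for Elk1 and Elk3 are uncertain. At 9 weeks 3 of 12 fell, Elk1 (-1.70 ± 0.40), Mef2d (-0.69 ± 0.16) and Mrtfa (-1.15 ± 0.29, adjusted p = 0.047), where 2.98% of all genes fell and 2.02% rose. Of 16 tested MAP kinase and calcium kinase genes 10 fell and 1 rose at 13 weeks, 68.8% against 45.3% of all genes. Those that fell included Camk4 (-3.15 ± 0.22), Camkk2 (-2.33 ± 0.34), Mapk9 (-1.32 ± 0.18) and Map2k4 (-0.94 ± 0.14). At 9 weeks Map2k4 fell (-0.60 ± 0.14) and Braf rose (1.03 ± 0.26).

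Markers of cell types moved with the rises of Fos and Jun at 13 weeks, where 23.4% of all genes rose and 21.9% fell. Of 10 astrocyte markers 9 rose and none fell, and their mean level was 9.14 to 9.22 in controls and 11.07 to 11.26 in mutants at 13 weeks (9.05 to 9.62 at 9 weeks). Of 12 microglia and macrophage markers all 12 rose, from 8.58 to 9.03 in controls to 11.37 to 11.79 in mutants (8.43 to 9.27 at 9 weeks). Of 8 endothelial and mural markers 6 rose, and their mean level was 5.66 to 6.31 in controls and 6.92 to 7.53 in mutants. Of 13 medium spiny neuron markers 12 fell, from 11.28 to 11.79 in controls to 9.19 to 9.89 in mutants, and all 7 general neuron markers fell. Of 7 oligodendrocyte markers 1 rose, of 6 cortex and thalamus markers 1 rose and 1 fell, and of 2 choroid plexus and ependymal markers 1 rose. None of 3 blood markers on the array passed the filter. In bulk tissue fewer cells of a type and less RNA per cell cannot be told apart. The part of these cell types in the rises of Fos and Jun was not tested.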

How the data were processed

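Per the labels, total RNA of the striatum was hybridised, 1 array per mouse. The deposited values are log2 expression that the authors made with GCRMA, per the submitters' processing notes. Its version and the arrays normalized together are not given in the sources used here. Of 22690 probe sets, 20380 had 1 gene symbol in GEO's platform annotation, 691 several, 1555 none and 64 were array controls, and only the first were used. No further normalization was applied. The number of arrays limits the precision.

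The values of 8256 of 12393 genes were fitted in R 4.3.3 with limma 3.58.1 (lmFit, eBayes), 1 coefficient per group and 8 residual degrees of freedom. P-values are two-sided, with Benjamini-Hochberg adjustment over all genes, and genes passed under 0.05. The labels do not say whether mice shared a litter. The 10 genes, the other gene lists and the tests were chosen with earlier results of these data known. All 10 genes, the 5 most alike, all tested AP-1, ATF, EGR and NR4A relatives and up to 4 of each other list with the smallest p were to be named, and of the marker lists counts are given. The procedure was tested on simulated data. Alternatives are in the closing section.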

Additional observations from a re-analysis of the deposited data

Results flagged for a closer look

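The difference between mutants and controls in Jun was not the same at the 2 ages. It was larger at 13 than at 9 weeks by 2.69 log2 in limma's test of the difference itself (adjusted p = 7.26e-05). It was 2.502 to 2.885 in the 12 fits that left out 1 array. At 13 weeks all 3 mutants lay above all 3 controls on both Jun probe sets.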

How the results depend on the processing

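Jun kept its calls at 13 weeks, in mutants with age and between the ages under each setting tried. Fos at 13 weeks lost its call with no filter (adjusted p = 0.0969), array weights (2.19, 0.0663), sex as a term and the replicate block (2.92, 0.0502 with limma), and passed in 7 of 12 fits with 1 array left out. The labels give no pairing of same-numbered mice, and the main fit did not pair them. Their deviations correlated at -0.12 to 0.32 over 18 pairs, and over 0.1 in 3, which cannot show whether they were paired. The replicate block called Dusp1 at 13 weeks (0.92, adjusted p = 0.0487) and left 3 genes called between control ages.

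Array weights, fitted gene by gene, called 2749 genes at 9 weeks, 3343 for the change between ages (with 2 members, Jun and Dusp1), 598 between control ages and 5083 between mutant ages (with 4 members, Fos, Jun, Egr1 and Dusp1). Fits to only the groups compared called 1050 at 9 weeks and 0 between control ages, where the 60th percentile filter called 7 and no filter 59. No filter left 1 member, Jun, at 13 weeks and 1, Jun, between mutant ages. Within females, a setting chosen after seeing the data like that within males and the other probe sets, 5 members passed at 13 weeks. That setting has a single control, assumed to vary like the other groups.

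Directions reversed, in no case for a reported call. Within males at 9 weeks Junb was at -0.10 and Egr1 at -0.0850, and within females at 13 weeks Egr1 was at 0.31 and Egr2 at 0.65. With sex as a term Arc was at -0.87 for the change between ages and -0.50 between mutant ages. Median centring put Nr4a1 between control ages at -0.0033, the other probe set put Jun there at 0.17, and array weights put Junb between mutant ages at 0.0569.

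With 1 array left out, genes called ranged from 62 to 1358 at 9 weeks and 0 to 25 between control ages. The 62 were called without mutant mouse 2 at 9 weeks and the 1358 without control mouse 3 at 13 weeks. At 13 weeks 1 to 3 members passed, where 2902 to 3950 of all 8256 genes did. For the change between ages 1 to 2 members passed, where 1071 to 1951 genes did. Between mutant ages 1 to 3 members passed, where 1900 to 3837 genes did. At 9 weeks the ranges were -0.40 to 0.865 for Junb, -0.3317 to 0.5133 for Egr1, -0.205 to 1.262 for Egr2, -0.1533 to 1.152 for Nr4a1, -0.0917 to 1.648 for Arc and -0.6733 to 0.0517 for Dusp1. For the change between ages they were -0.7833 to 0.0617 for Egr1 and -0.585 to 1.155 for Arc. Between control ages they were -0.4767 to 1.415 for Fos, -0.8233 to 0.0317 for Egr2, -0.3367 to 0.5083 for Nr4a1, -0.1583 to 1.077 for Arc and -0.0933 to 0.3167 for Dusp1. Between mutant ages they were -0.5817 to 0.6833 for Junb and -0.215 to 1.525 for Arc. The cause of these changes was not tested. Fosb and Ier2 lay too near the floor to be read.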
